A study of Mus musculus with 8 samples.

Results

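Hmga2 and 8 genes that are grouped with it as fetal growth genes under or beside the microRNA let-7 were examined in cultured fibrochondrocytes that lacked the proteoglycan NG2/CSPG4. The 9 genes were Hmga1, Hmga2, Igf2bp1, Igf2bp2, Igf2bp3, Lin28b, Igf2, H19 and Plagl1, 9 of the 55401 genes in the deposited table. They were selected by gene name because Hmga2 was more than 2-fold lower in the knockout, so the genotype comparison itself chose them. Their levels and fold changes are therefore given as a description, without p-values, and the calls counted among them rest on the values that chose them and are no independent support. Hmga2 lay past that limit at 2.44-fold lower, and Igf2bp3 fell just short of it at 1.87-fold lower.

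let-7 is a family of microRNAs that accumulates as tissues mature and lowers messages carrying a match to its seed in the 3′ untranslated region (3′ UTR). HMGA2, an architectural chromatin protein that binds AT-rich DNA, is abundant in embryonic mesenchyme and is the best known target of let-7. The IGF2BP proteins bind and stabilize messages, Igf2 among them, and are also largely fetal. LIN28B binds let-7 precursors and blocks their processing. Igf2 encodes a fetal growth factor and lies beside the noncoding RNA H19 in an imprinted cluster, in which Igf2 is read from the paternal and H19 from the maternal chromosome. Plagl1, which encodes a zinc finger factor, is imprinted as well and belongs to the same network of growth genes.

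The cells were primary fibrochondrocytes from the mandibular condylar cartilage of pups given as 10 to 14 days old in the sample labels and as 14 days old in the methods for sequencing, at passage 4 in normal growth medium. The 4 NG2ko libraries came from mice with a global, reporter-tagged (LacZ) deletion of Cspg4, bred from a 6N line that was backcrossed to C57BL/6J for 3 generations and then kept as a homozygous colony. The 4 WT libraries came from C57BL/6J mice bought from Jackson Laboratory, so genotype and colony cannot be told apart. The libraries of each genotype are described as biological replicates.

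Cspg4 itself had 6.93 to 13.5 CPM (counts scaled to library size, per 1e6 counts) in NG2ko and 201 to 241 CPM in WT, which is -4.56 ± 0.22 as a log2 fold change, where ± is the standard error of the fit. Libraries held 67197864 to 80300263 counts in NG2ko and 60317187 to 83668935 counts in WT. Of 17190 genes with enough counts, 2097 (12.2%) were called at an adjusted p under 0.05, 937 (5.45%) higher and 1160 (6.75%) lower in NG2ko. In 3425 genes (19.9%) the CPM of the 4 NG2ko libraries did not overlap that of the 4 WT libraries. The 4 Y-linked genes examined summed to 188 to 202 CPM in NG2ko and 0 to 0.286 CPM in WT, and Xist, the RNA of the inactive X, had 0.197 to 3.3 CPM in NG2ko and 102 to 210 CPM in WT. The sex of the pups is not stated, and in these libraries genotype and the sex of the cells cannot be told apart. The 14 myeloid markers summed to 345 to 402 CPM in NG2ko and 98.5 to 118 CPM in WT, with 13 of them called higher, and none was at 0 in all 4 libraries of either genotype, with Spi1 at 0 counts in WT library 2. The 12 fibrochondrocyte markers summed to 45700 to 55100 CPM in NG2ko and 40800 to 49400 CPM in WT, 5 of them called higher. In bulk RNA, fewer cells of a type and less RNA per cell cannot be told apart. The part of sex, colony or myeloid RNA in the values below was not tested.

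The let-7 sequences define the seed match that was looked for in each gene. Of 13 mature let-7 and miR-98 entries in the RefSeq mouse annotation (GRCm38.p6), 12 carried the same seed, bases 2 to 8, and formed 10 distinct mature sequences. The remaining entry, let-7j, had another seed. The following 5, printed 5′ to 3′ with the seed in capitals, show how the family varies outside it.
mmu-let-7a-5p: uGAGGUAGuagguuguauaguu
mmu-let-7d-5p: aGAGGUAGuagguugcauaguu
mmu-let-7e-5p: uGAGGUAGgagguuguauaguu
mmu-let-7g-5p: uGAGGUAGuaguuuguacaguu
mmu-miR-98-5p: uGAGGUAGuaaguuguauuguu

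A message pairs with this seed where its own strand reads CTACCTC in DNA letters. These 7 letters were searched in the annotated 3′ UTR of each gene (GENCODE M21, GRCm38, the principal transcript with the longest 3′ UTR), on the transcript's strand only. Matches that were shorter, or shifted against these 7 letters, were not searched, so the counts below leave them out. Hmga2 had 4 matches in 2977 bases, Lin28b 4 in 4445 bases and Igf2bp1 4 in 6337 bases. Igf2bp2 had 1 match in 1784 bases, Igf2bp3 1 in 2119 bases and Hmga1 1 in 1183 bases. Igf2 (3050 bases) and Plagl1 (2590 bases) had none, and no match was found in any of the 7 annotated H19 transcripts. The sites of Hmga2, the gene with the lowest log2 fold change here, and of the Igf2bp family are printed below as 25 bases around each match, for Igf2bp1 only those followed by an A, 5′ to 3′ on the message strand with the match in capitals. An A just after the match completes the strongest class of microRNA site.
Hmga2 match 1, chr10:120364219-120364243, minus strand: gacattcaatttCTACCTCagcatc
Hmga2 match 2, chr10:120362982-120363006, minus strand: cactcctcaataCTACCTCtgaatg
Hmga2 match 3, chr10:120362544-120362568, minus strand: atttgcaaggaaCTACCTCcacact
Hmga2 match 4, chr10:120361686-120361710, minus strand: caaaacacactaCTACCTCttaagt
Igf2bp1 match 1, chr11:95961773-95961797, minus strand: gtgcgaagtaaaCTACCTCaaggtg
Igf2bp1 match 2, chr11:95959352-95959376, minus strand: cagtgctattaaCTACCTCagcccc
Igf2bp1 match 3, chr11:95958758-95958782, minus strand: taaatggatgaaCTACCTCagtcct
Igf2bp2 match 1, chr16:22059468-22059492, minus strand: cacaaataaaagCTACCTCaggtgt
Igf2bp3 match 1, chr6:49086782-49086806, minus strand: atttttactcaaCTACCTCaggtat

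Only 1 of the 4 Hmga2 matches was followed by an A, the one 21 bases into the 3′ UTR, whereas 3 of the 4 in Igf2bp1 and the single matches of Igf2bp2 and Igf2bp3 were. The other Hmga2 matches lay 1258, 1696 and 2554 bases into the 3′ UTR. Having 4 matches was rare. Among 1677 tested genes with a 3′ UTR of like length (0.8 to 1.25 times that of Hmga2), 16.6% had at least 1 match and 0.119% had at least 4. Over 394 genes with a 3′ UTR of like length to that of Igf2bp1, 34.8% had at least 1 match and 0.254% had at least 4. These shares count Hmga2 and Igf2bp1 themselves, and the 0.254% was Igf2bp1 alone. Of all 13663 tested genes with an annotated 3′ UTR, 9.42% had a match, and 7 had 4 or more, Hmga2 and Igf2bp1 among them. For Igf2bp2, Igf2bp3 and Hmga1, with 1 match each, 12.2%, 13.4% and 8.40% of genes with a 3′ UTR of like length had at least 1 match. A match is a description of the sequence and says nothing on whether let-7 bound there.

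**Figure D1:**
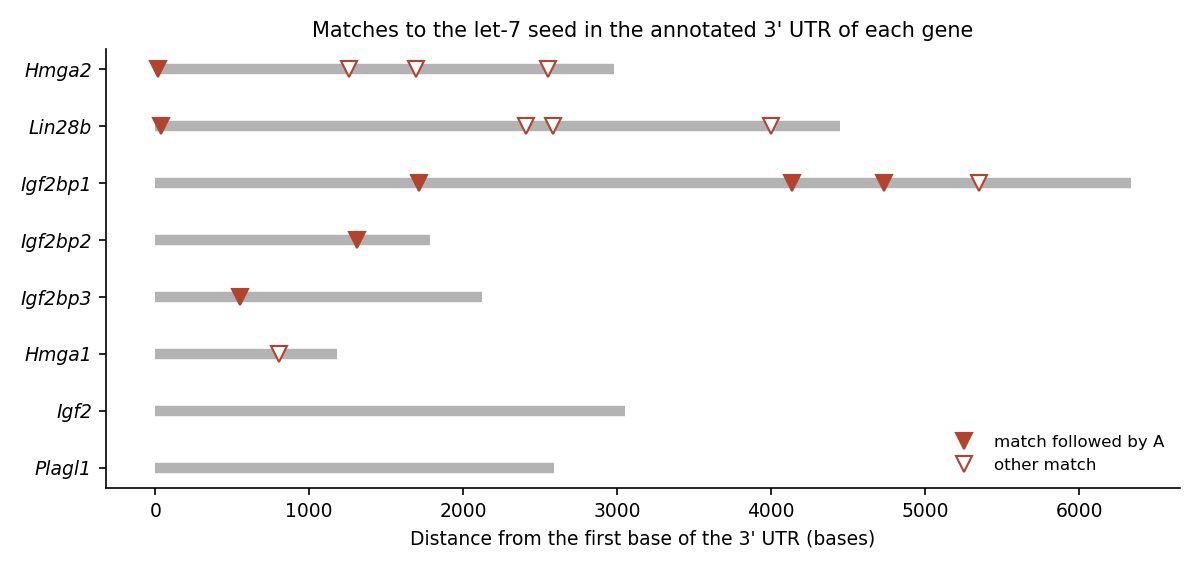
Each gray bar is the annotated 3′ UTR of one gene, drawn to scale in bases from its first base, and each triangle is a match to the let-7 seed, filled where an A follows it. Hmga2, Lin28b and Igf2bp1 have 4 matches each, Igf2bp2, Igf2bp3 and Hmga1 have 1, and Igf2 and Plagl1 have none.

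Hmga2 was the member with the largest difference between the genotypes. Hmga2 (ENSMUSG00000056758, chr10:120361275-120476469, minus strand) had 98.4, 82.0, 97.5 and 90.1 CPM in NG2ko libraries 1 to 4, against 231, 225, 226 and 214 CPM in WT libraries 1 to 4. Every NG2ko library lay below every WT library, and the highest NG2ko value was under the lowest WT value by more than the whole spread within either genotype. The raw counts behind these values were 5529 to 7926 reads in NG2ko and 13735 to 18566 reads in WT, so depth did not limit them. Hmga2 averaged 92.0 ± 7.61 CPM in NG2ko and 224 ± 7.21 CPM in WT (SD, n = 4 each), and its NG2ko level was 41.0% of its WT level. Hmga2 thus differed by -1.29 on the log2 scale (standard error 0.06), and 178 of the 17190 tested genes had a lower one. Per transcript length, the level of Hmga2 was 12.5 ± 1.05 FPKM in NG2ko and 29.6 ± 1.12 FPKM in WT (SD, n = 4 each), where FPKM is the number of fragments scaled to transcript length and library size. Hmga2 therefore stood above 79.3% of the tested genes in NG2ko and above 91.1% in WT. The entries that overlap Hmga2 on the genome held few reads, at most 3 in NG2ko and 18 in WT, summed over 4 libraries.

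Hmga1 encodes the other HMGA protein, which binds the same kind of DNA. Hmga1 (ENSMUSG00000046711, chr17:27556497-27563674, plus strand) had 18.5, 47.7, 25.4 and 17.8 CPM in NG2ko, against 31.0, 26.1, 28.3 and 31.3 CPM in WT. NG2ko library 2 was above every WT library and the other 3 NG2ko libraries were below every WT library. Hmga1 averaged 27.4 ± 14.0 CPM in NG2ko and 29.2 ± 2.45 CPM in WT (SD, n = 4 each), and the log2 difference was -0.09 (standard error 0.32). Its coefficient of variation, the SD as a percentage of the mean, was 51.2% in NG2ko, larger than in 98.9% of 4876 genes of like level, and 8.41% in WT. Without NG2ko library 2 the log2 fold change was -0.50 and the gene was called lower, and without NG2ko library 1 or 4 it was 0.05 or 0.07.

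Reads of Hmga1 can be shared with Hmga1b (ENSMUSG00000078249, chromosome 11), a near copy: 59.9% of the 1902 windows of 100 bases in the longest Hmga1 transcript were found unchanged in Hmga1b. Hmga1b had 26.8, 24.5, 26.9 and 27.2 CPM in NG2ko, against 44.2, 44.8, 47.3 and 48.8 CPM in WT. Here all NG2ko libraries were below all WT libraries, and the difference was -0.81 on the log2 scale (standard error 0.06). With the counts of both genes added, the sum was 45.3, 72.3, 52.3 and 45.0 CPM in NG2ko and 75.2, 70.9, 75.6 and 80.0 CPM in WT. NG2ko library 2 still overlapped WT, and the fit of the sum gave -0.49 on the log2 scale (standard error 0.14). The log2 ratio of mean CPM, taken without a fit, was -0.49 with all libraries and -0.67 without NG2ko library 2. How the authors' counting assigned reads that fit both genes is not given in the sources used here, so the division between Hmga1 and Hmga1b is uncertain. Hmga1 also overlaps AI413582 on the other strand, which held 5274 counts over the NG2ko libraries and 5105 over the WT libraries, and the strand setting of the counting is not stated. FPKM placed Hmga2 above Hmga1 in every WT library, by ratios of 2.16 to 2.72. In NG2ko the ratio of Hmga2 to Hmga1 was 1.68, 0.54, 1.21 and 1.60, so that library 2 had more Hmga1 than Hmga2. Hmga1b alone had 13.7 to 15.5 FPKM in NG2ko and 24.2 to 26.5 FPKM in WT. The FPKM of Hmga1 and Hmga1b, each over its own length, would together exceed Hmga2 in every library. A level of both over the length of Hmga1 was not computed. The order of Hmga2 and Hmga1 can therefore depend on how shared reads were assigned.

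**Figure D2:**
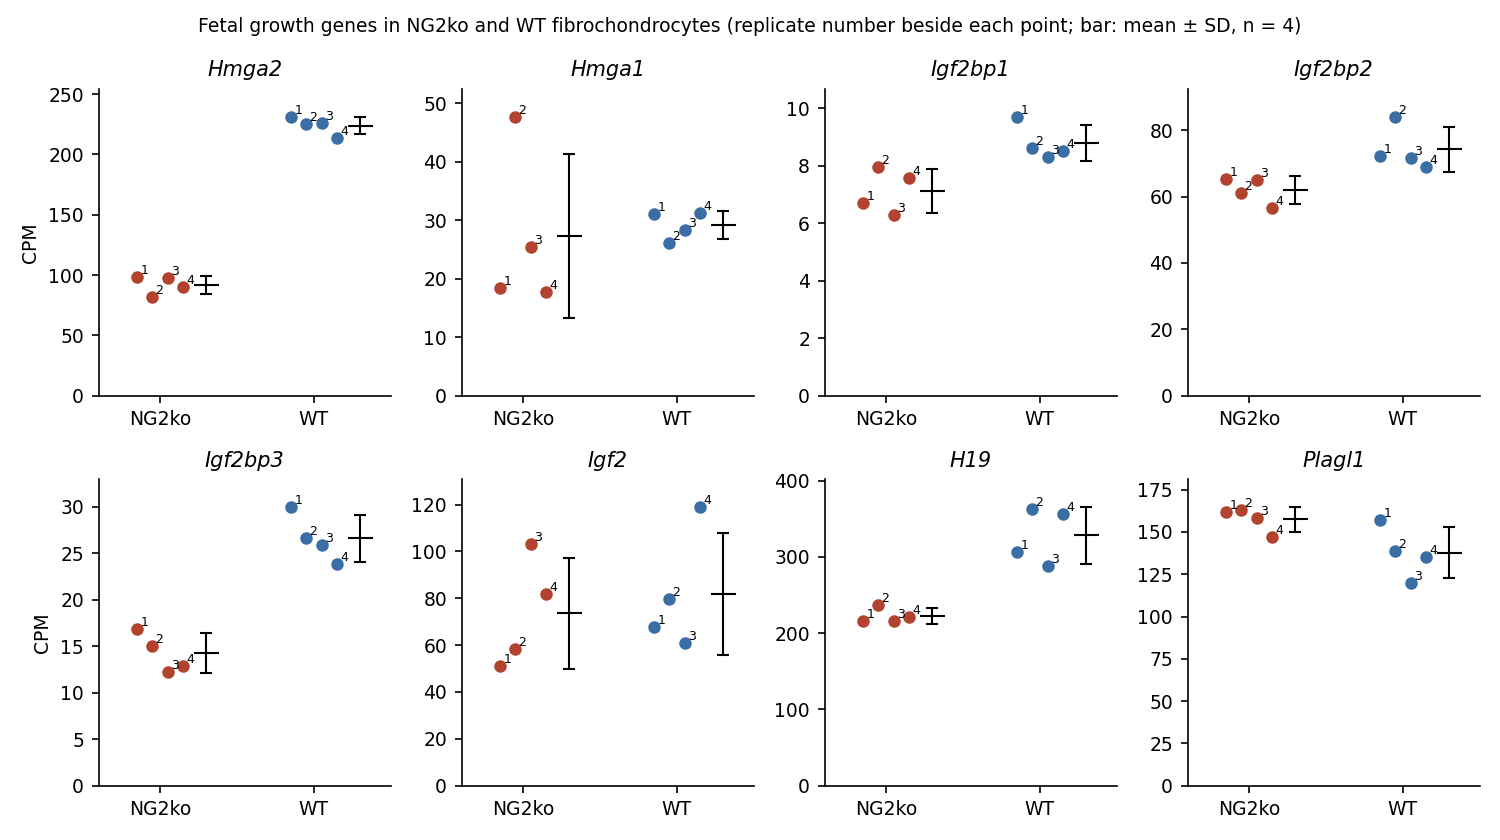
Each panel shows one gene in CPM on an axis that starts at 0, with 1 numbered point per library, NG2ko in red and WT in blue, and the mean ± SD (n = 4) beside each group. The 4 NG2ko points of Hmga2 sit between 82.0 and 98.4 and the 4 WT points between 214 and 231. The groups of Igf2 overlap widely. For Hmga1, 1 NG2ko point, at 47.7, lies above all WT points and the other NG2ko points lie below them.

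The 3 Igf2bp genes encode RNA binding proteins of one family, and they lay at very different levels. Igf2bp3 (ENSMUSG00000029814, chr6:49085223-49214957, minus strand) had 16.9, 15, 12.2 and 12.9 CPM in NG2ko, against 30.0, 26.7, 25.9 and 23.9 CPM in WT. The groups were apart, with 14.2 ± 2.13 CPM in NG2ko and 26.6 ± 2.58 CPM in WT (SD, n = 4 each), and the NG2ko level was 53.5% of the WT level. The log2 fold change of Igf2bp3 was -0.90 (standard error 0.11), with 435 tested genes lower. Igf2bp3 overlaps Malsu1 on the other strand, which held 3606 counts over the NG2ko libraries and 2676 over the WT libraries, beside 904 to 1361 Igf2bp3 counts per library in NG2ko and 1533 to 2195 in WT.

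Igf2bp2, the member of the family that stays on in adult tissues and a known transcriptional target of HMGA2 in mouse myoblasts, was the most abundant of the 3. Igf2bp2 (ENSMUSG00000033581, chr16:22059009-22163299, minus strand) had 65.2, 61.1, 65.1 and 56.5 CPM in NG2ko, against 72.2, 84, 71.6 and 69.0 CPM in WT. The groups did not overlap, but the gap between the highest NG2ko library and the lowest WT library was small beside the spread. Means were 62.0 ± 4.12 CPM in NG2ko and 74.2 ± 6.66 CPM in WT (SD, n = 4 each), a log2 difference of -0.26 (standard error 0.07). Igf2bp2 was called under 4 of 15 alternative settings. With all libraries kept, it lost its call with FPKM in place of counts, without the filter on low counts and with the replicate block. It also lost its call when any single library other than WT library 4 was left out. Its values ranged from -0.30 to -0.19 over all libraries left out in turn.

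Igf2bp1 (ENSMUSG00000013415, chr11:95957163-96005940, minus strand) was the lowest of the measured genes. Its level was 6.69, 7.94, 6.28 and 7.59 CPM in NG2ko, against 9.70, 8.63, 8.30 and 8.50 CPM in WT. The groups were separated by a narrow gap, with a log2 difference of -0.30 (standard error 0.11) that did not pass the call. It was called under none of the 15 alternatives. The FPKM of the 3 genes together was 9.94 ± 0.550 in NG2ko and 12.7 ± 0.911 in WT (SD, n = 4 each). Of that sum, Igf2bp3 made up 16.0% ± 1.80 in NG2ko, with a range of 13.6% to 17.9%, and 23.0% ± 1.87 in WT, with a range of 21.1% to 25.5%. Igf2bp2 made up 77.2% ± 2.20 in NG2ko and 70.6% ± 2.31 in WT, so the composition of the family in NG2ko lay further toward Igf2bp2.

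Lin28b (ENSMUSG00000063804, chr10:45376620-45486395, minus strand) had 0 counts in all 8 libraries. With 295015492 counts in the 4 NG2ko libraries together and 280085864 in the 4 WT libraries, a count of 0 allows a level of up to 0.0102 CPM in NG2ko and 0.0107 CPM in WT, taking 3 counts as the limit and counting error alone. Lin28a, its paralog, and Trim71, another developmental target of let-7, were also at 0 in all libraries. No fold is given for them.

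Igf2 and H19 lie next to each other on chromosome 7 and differed in how they behaved. H19 (ENSMUSG00000000031, chr7:142575529-142578143, minus strand) had 216, 237, 216 and 221 CPM in NG2ko, against 306, 363, 288 and 357 CPM in WT. Its groups were clearly apart, and the NG2ko libraries were close to each other. Mean H19 was 223 ± 9.72 CPM in NG2ko and 329 ± 37.2 CPM in WT (SD, n = 4 each), so NG2ko had 67.8% of the WT level, or -0.56 on the log2 scale (standard error 0.08). Igf2 (ENSMUSG00000048583, chr7:142650766-142666816, minus strand) had 51.1, 58.4, 103 and 81.8 CPM in NG2ko, against 67.9, 79.7, 60.8 and 119 CPM in WT. These groups overlapped over most of their range, with 73.6 ± 23.7 CPM in NG2ko and 81.9 ± 26.1 CPM in WT (SD, n = 4 each). The log2 fold change of Igf2 was -0.15 (standard error 0.30), and it was 0.08 without WT library 4. The coefficient of variation of Igf2 was 32.2% in NG2ko and 31.9% in WT, larger than in 97.6% and 97.4% of genes of like level in the same genotype. The ratio of H19 to Igf2 in FPKM was 9.86, 9.45, 4.88 and 6.28 in NG2ko and 10.5, 10.6, 11 and 6.96 in WT, so libraries of both genotypes shared the range from 6.96 to 9.86.

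Plagl1 (ENSMUSG00000019817, chr10:13060504-13130982, plus strand) was the only one of the 8 measured genes with a positive log2 fold change. Its level was 162, 163, 158 and 147 CPM in NG2ko, against 157, 139, 120 and 135 CPM in WT. WT library 1 lay within the NG2ko range, and the means were 157 ± 7.08 CPM in NG2ko and 138 ± 15.3 CPM in WT (SD, n = 4 each). The log2 fold change was 0.19 (standard error 0.08) and was not called. Without WT library 1 it was 0.26 and was called higher.

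Of the 9 genes, 8 had enough counts for the fit, and Lin28b did not. In the comparison that chose them, 4 were called lower in NG2ko (Hmga2, Igf2bp2, Igf2bp3 and H19), beside 6.75% of all tested genes, and 0 were called higher by edgeR or by DESeq2, beside 5.45%. In 5 of them the groups did not overlap (these 4 and Igf2bp1), beside 19.9% of all tested genes. The median log2 fold change of the 8 was -0.28, beside 0.02 over all tested genes. Hmga2, Igf2bp3 and H19 were called under all 15 alternatives.

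**Figure D3:**
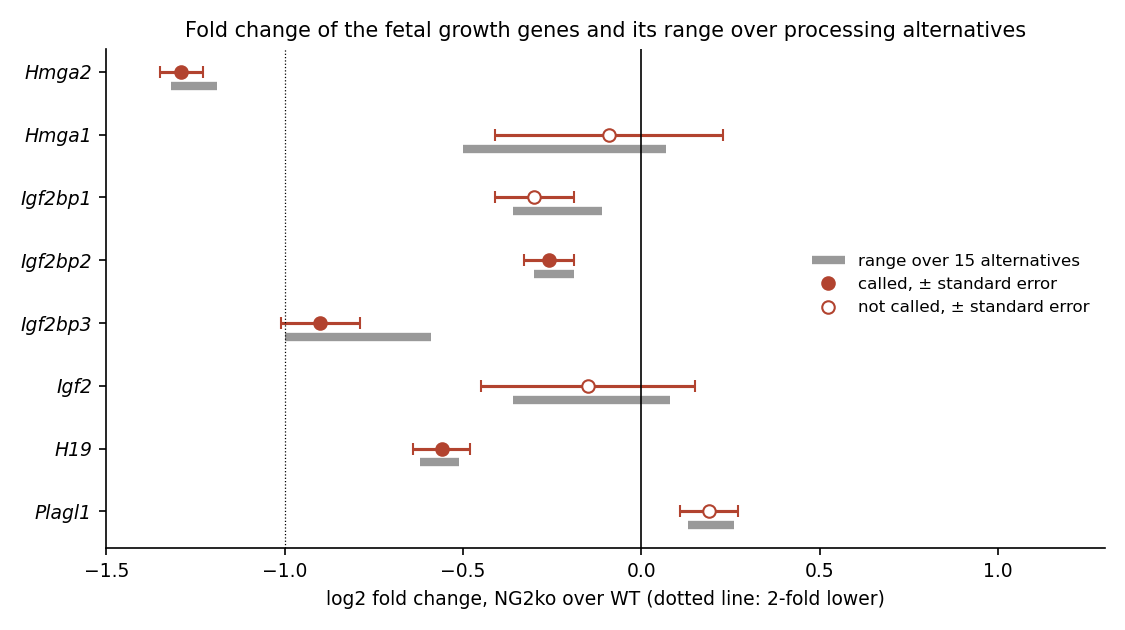
Points are log2 fold changes of NG2ko over WT with their standard errors, filled where the gene was called, and gray bars span the values under 15 alternative settings. Hmga2 is at -1.29, left of the dotted line at 2-fold lower, Igf2bp3 is at -0.90, and the gray bars of Hmga1 and Igf2 cross 0.

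Ordered by level per transcript length, H19 led in both genotypes, with 83.0 ± 3.39 FPKM in NG2ko and 119 ± 12.6 FPKM in WT (SD, n = 4 each). In NG2ko, Plagl1 (18.4 FPKM) came next, followed by Hmga2 (12.5 FPKM), Igf2 (11.8 FPKM), Hmga1 (11.7 FPKM), Igf2bp2 (7.67 FPKM), Igf2bp3 (1.60 FPKM) and Igf2bp1 (0.674 FPKM). The neighbors from Hmga2 to Igf2bp2 in this order overlapped in range and did not differ beyond their spread. In WT, Hmga2 (29.6 FPKM) was second, ahead of Plagl1 (15.7 FPKM), Igf2 (12.7 FPKM), Hmga1 (12.2 FPKM), Igf2bp2 (8.94 FPKM), Igf2bp3 (2.91 FPKM) and Igf2bp1 (0.808 FPKM). There, Plagl1, Igf2 and Hmga1 overlapped as neighbors. The place of Hmga1 in both orders leaves out the reads assigned to Hmga1b. Hmga2 thus ranked below Plagl1 in NG2ko and above it in WT, with no overlap between these genes in either genotype.

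**Figure D4:**
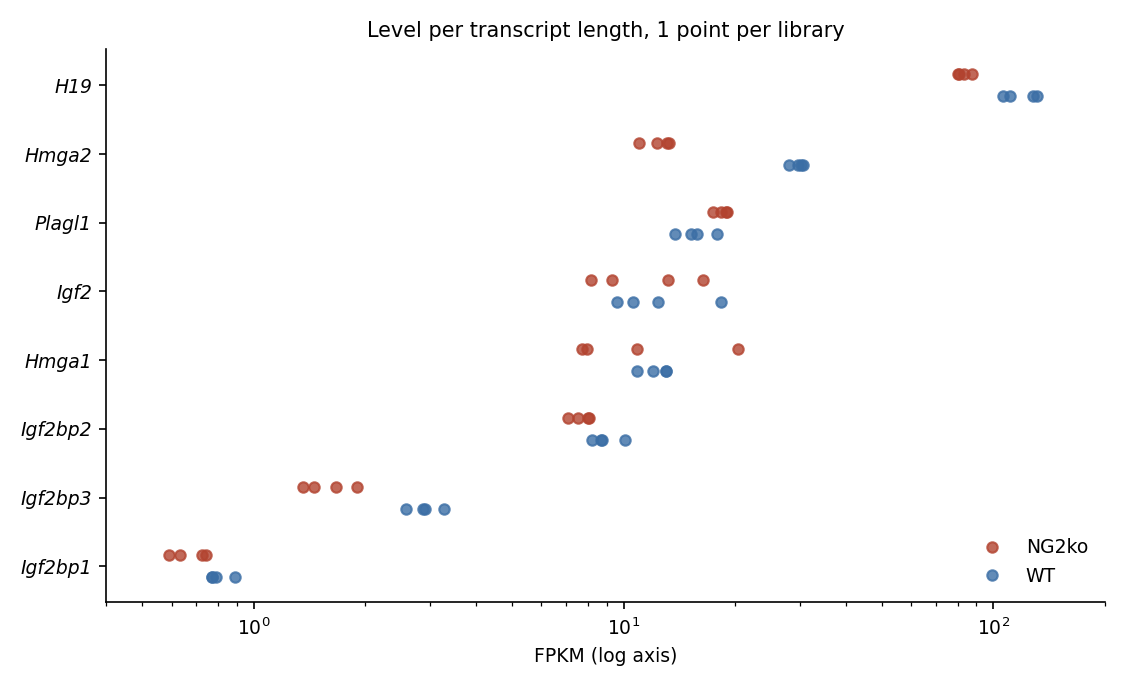
Each point is 1 library, NG2ko in red above WT in blue for each gene, on a log axis in FPKM. The order runs from H19 at the top to Igf2bp1 at the bottom, and Hmga2 lies between 11 and 13.3 FPKM in NG2ko and between 28.0 and 30.5 FPKM in WT.

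Genes that followed Hmga2 across the libraries were named by their Pearson r with its log2 level. Over the 8 libraries, the 5 highest were Gng2 (r = 0.997), Tnfrsf23 (r = 0.996), Trib2 (r = 0.995), Pitpna (r = 0.993) and Entpd4 (r = 0.993). Since Hmga2 formed separate clusters by genotype, these values describe mostly the genotype difference, and all 5 genes were lower in NG2ko, with log2 fold changes of -0.83, -0.72, -1.0, -0.23 and -0.80. After the mean of each genotype was subtracted, other genes led, Pclaf (r = 0.956), Ch25h (r = 0.948) and Rfx1 (r = 0.946) among them. Both rankings were taken from 12248 genes compared over 8 libraries, and with so many genes high values can arise by chance. Of the other fetal growth genes, Igf2bp3 had an r of 0.95 with Hmga2 over 8 libraries and 0.15 after subtraction, and H19 had 0.90 and -0.51. The coefficient of variation of Hmga2 was 8.28% in NG2ko and 3.22% in WT, over 4 libraries each. The values after subtraction therefore do not settle whether Igf2bp3 or H19 moved with Hmga2 within a genotype. Hmga1 had an r of 0.16 over 8 libraries and -0.70 after subtraction, where NG2ko library 2, highest in Hmga1, was lowest in Hmga2.

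Other let-7 targets came from a list of 33 genes. Of 29 with enough counts, 3 rose and 5 fell, beside 5.45% higher and 6.75% lower over all genes, and the median log2 value was -0.11, beside 0.02. The calls of genes that rose were the less stable: 0 were higher and 6 lower with the replicate block, and 0 were higher without NG2ko library 3, NG2ko library 4 or WT library 3, with 4, 5 and 5 lower. The genes that fell included cyclins and a growth factor receptor. Ccnd1, which encodes cyclin D1 of the G1 phase, had 538, 537, 558 and 536 CPM in NG2ko, against 871, 864, 870 and 901 CPM in WT, and fell by 0.69 on the log2 scale (standard error 0.04, adjusted p = 6.63e-06). Its range within each genotype was very narrow beside the gap between them. Ccnd2, the gene of cyclin D2, averaged 1130 ± 17.7 CPM in NG2ko and 1600 ± 62.9 CPM in WT (SD, n = 4 each; log2 fold change -0.50, adjusted p = 8.23e-05). Igf1r, the receptor for IGF1 and IGF2, fell by 0.43 on the log2 scale (adjusted p = 0.00101), and Cdc34, a ubiquitin conjugating enzyme, fell by 0.32.

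Among those that rose were Tgfbr1, a TGF-β receptor (log2 fold change 0.30), and Smarcad1, a chromatin remodeler (0.23). Myc, a further target, had a log2 fold change of 0.14 and was not called. Single libraries set the value of some targets. Plagl2, a relative of Plagl1, had 15.7, 14.6, 15.3 and 0.985 CPM in NG2ko and 13.6, 15.2, 15.9 and 15.1 CPM in WT, so that only NG2ko library 4 lay apart. Mycn was near the limit of detection, with 0.115 ± 0.135 CPM in NG2ko and 0.504 ± 0.148 CPM in WT (SD, n = 4 each), and was not called.

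Genes with a seed match changed in both directions across the transcriptome. Apart from the fetal growth genes, 157 tested genes had 2 or more matches in the 3′ UTR, of which 10 (6.37%) rose and 10 (6.37%) fell, and their median log2 difference was 0.027. Among 1125 genes with 1 match, 53 (4.71%) rose and 124 (11%) fell, with a median of -0.015. Among 12374 genes with none, 826 (6.68%) rose and 975 (7.88%) fell, with a median of 0.013. The 3′ UTRs of these groups differed in length, with medians of 3637, 2132 and 946 bases. Among genes with a 3′ UTR of 2000 bases or more, 3.88% rose and 4.65% fell of 129 with 2 or more matches, against 7.17% and 9.42% of 2899 with none. Genes with 1 match were not divided by length in this way, and the part of length in their shares was not tested.

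Of 20 tested genes for microRNA processing and its regulators, 3 rose and 0 fell by edgeR at an adjusted p under 0.05, beside 5.45% higher and 6.75% lower over all genes, and none of the 20 was lower at an unadjusted p under 0.05 or by DESeq2. These were Hnrnpa1, which binds let-7 precursors in human cells (259 ± 6.15 CPM in NG2ko and 209 ± 10.8 CPM in WT, SD, n = 4 each; log2 fold change 0.31, adjusted p = 0.00238), Ddx17, a helicase of the Drosha complex (0.27, adjusted p = 0.0198), and Mettl1, a methyltransferase that modifies let-7 in human cells (0.37, adjusted p = 0.0441). Mettl1 lost its call under 8 of 15 alternatives. Drosha, Xpo5 and Dicer1, which cut and export the precursors, had log2 fold changes of 0.02, 0.03 and 0.12 and were not called, nor were the terminal transferases Tut4 (0.18) and Tut7 (-0.02) or the exonuclease Dis3l2 (0.07).

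Mature let-7 is not captured by poly(A) libraries, and the table's own let-7 entries were at most near 0, so let-7 itself was not measured. Of the longer transcripts that contain let-7 genes, 4 had enough counts. By edgeR, 0 were called, beside 5.45% higher and 6.75% lower over all genes. With 4 genes, 0 calls cannot be told from these shares. At an unadjusted p under 0.05, 1 was lower. The closest was Mir100hg, which carries let-7a-2 (27.2 ± 5.79 CPM in NG2ko and 36.8 ± 2.98 CPM in WT, SD, n = 4 each; log2 fold change -0.44, adjusted p = 0.068). DESeq2 called it, and so did edgeR without NG2ko library 4, where it was at -0.59. Mir99ahg, the host of let-7c-1, Huwe1 and Wdr82 had log2 fold changes of 0.34, -0.10 and 0.08.

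Genes linked to HMGA proteins, a list of 12, split evenly about 0 with a median log2 fold change of 0.00. Snai1, a transcription factor of epithelial to mesenchymal transition and an HMGA2 target, rose to 83.0 ± 6.54 CPM in NG2ko, against 64.3 ± 2.89 CPM in WT (SD, n = 4 each; log2 fold change 0.37, adjusted p = 0.00461). E2f1, whose product drives entry into S phase, fell by 0.24 (adjusted p = 0.0382) and lost its call under 11 of 15 alternatives. Cdkn2a, which HMGA2 represses in mouse neural stem cells, averaged 199 ± 9.75 CPM in NG2ko and 203 ± 17.5 CPM in WT (SD, n = 4 each) and was not called. Its neighbor Cdkn2b was at -0.15 on the log2 scale (adjusted p = 0.0713).

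Among other imprinted genes of growth, 26 of 29 were tested, and 3 rose and 6 fell, beside 5.45% higher and 6.75% lower over all genes, around a median of -0.12 on the log2 scale. Dio3, which encodes the deiodinase that inactivates thyroid hormone, had 38.5, 36.3, 37.4 and 38.8 CPM in NG2ko, against 14.6, 15.1, 15.7 and 17.1 CPM in WT (log2 fold change 1.27, standard error 0.07, adjusted p = 4.41e-06). Every NG2ko library exceeded every WT library more than 2-fold. In the same imprinted region on chromosome 12, the noncoding RNA Rian fell (-0.45, adjusted p = 0.00999), while its neighbor Meg3 had 180 ± 37.7 CPM in NG2ko and 178 ± 34.9 CPM in WT (SD, n = 4 each) and was not called. Cdkn1c, an inhibitor of the cell cycle on the same chromosome as H19, averaged 21.6 ± 2.63 CPM in NG2ko and 14.0 ± 1.17 CPM in WT (SD, n = 4 each; log2 fold change 0.62, adjusted p = 0.00288), and Zim1, a zinc finger gene, rose by 0.53. The remaining genes that fell were Igf2r (-0.40), Snrpn (-0.43), Ndn (-0.29), Impact (-0.28) and Peg10 (-0.28).

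The IGF pathway had 16 of 17 genes tested, of which 3 rose and 6 fell, beside 5.45% higher and 6.75% lower over all genes, around a median of -0.08 on the log2 scale. Of the receptors on the list, Igf1r, which signals, and Igf2r, which carries IGF2 to lysosomes, fell. The insulin receptor gene Insr had a log2 fold change of -0.07 and was not called. Igf2r averaged 279 ± 30.7 CPM in NG2ko and 370 ± 35.3 CPM in WT (SD, n = 4 each). Igf1, the ligand of later growth, averaged 257 ± 11.6 CPM in NG2ko and 298 ± 9.64 CPM in WT (SD, n = 4 each; log2 fold change -0.21). Among binding proteins, Igfbp2 fell (-0.35, adjusted p = 0.00776), Igfbp7 fell (-0.18) and Igfbp4 rose (0.33). The proteases that cut IGF binding proteins went opposite ways, with Pappa lower (-0.47, adjusted p = 0.00761) and Pappa2 higher (0.55), and Stc2, an inhibitor of these proteases, rose (0.59, adjusted p = 0.00245).

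Genes of cell division, a list of 20, had a median log2 fold change of 0.26, with 6 higher and 1 lower in NG2ko, beside 5.45% and 6.75% of all genes. Mcm6 and Mcm2, subunits of the replicative helicase, rose by 0.43 (adjusted p = 0.00164) and 0.31 (adjusted p = 0.00439), and Top2a, the topoisomerase of dividing cells, rose by 0.43 (adjusted p = 0.00697). The 20 genes summed to 337 to 359 CPM in NG2ko and 304 to 327 CPM in WT, and its part in the levels of the fetal growth genes was not tested.

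**Figure D5:**
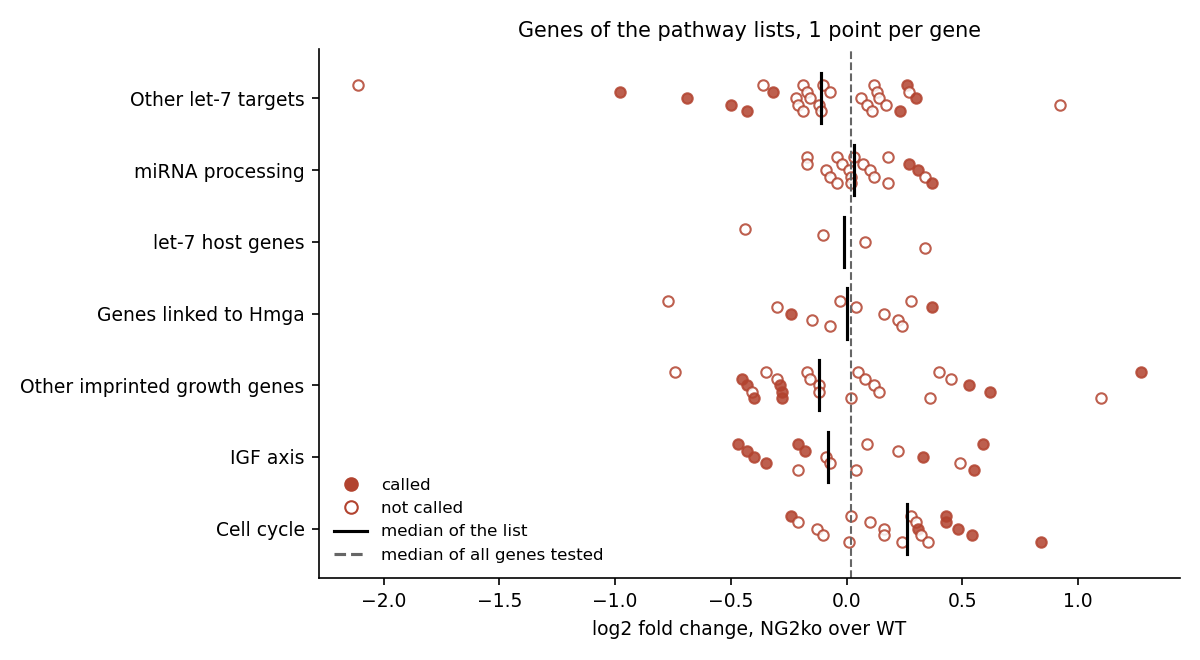
Each point is 1 tested gene of a list, placed by its log2 fold change of NG2ko over WT and filled where it was called, with the median of the list as a black line and that of all tested genes (0.02) as a dashed line. Other let-7 targets spread to both sides of 0, and the cell cycle list has the highest median of the 7 lists drawn, 0.26.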

How the data were processed

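RNA was measured in 4 NG2ko and 4 WT libraries, grouped by the sample labels. The authors trimmed reads, mapped them to the Ensembl mouse genome (HISAT2) and estimated levels (StringTie, edgeR). Per gene and library, the deposited table has raw counts and FPKM by the authors for 55401 genes; the tool that counted the reads and its handling of shared reads are not given in the sources used here. Gene coordinates are the table's own, which equal those of GENCODE M21 (GRCm38) for 94.2% of 55141 shared genes and for 8 of the 9 fetal growth genes (Plagl1 has another end). All per-sample columns were used.

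Counts were scaled by TMM, filtered with filterByExpr (count minimum 10) and tested by quasi-likelihood F tests (edgeR 4.0.16, R 4.3.3), genotype as the only term, with Benjamini-Hochberg adjustment over 17190 genes and a threshold of 0.05. Standard errors were derived as |log2 fold change| over √F. Replicate p-values measure the spread between these libraries. Scripts were tested on simulated data. Alternatives were DESeq2 1.42.0, upper-quartile scaling, no filter, a filter of 1 CPM in 4 libraries, FPKM with limma 3.58.1 (pseudocounts 0.1 and 1), leaving out each library and a replicate block; adding Hmga1b to Hmga1 was chosen after the data were examined. Genes and lists were chosen with earlier results of these data known. Named genes were the 9, Cspg4, up to 4 genes of each list with the smallest p, and the 5 with the highest r with Hmga2 (mean of at least 1 CPM) before and after subtracting genotype means, leaving out Gm and Rik models; Hmga1b and any other gene named were chosen after their values were seen. Values of some genes on the lists are not reported here. Figures used matplotlib 3.10.9.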

Additional observations from a re-analysis of the deposited data

Results flagged for a closer look

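Within groups of 4 libraries, 32 sets of values were examined for a single library far from the other 3, and 3 were found, where chance alone marks about 1 in 20. Hmga1b had 24.5 CPM in NG2ko library 2, against 26.8 to 27.2 CPM in the other NG2ko libraries, and this is the library in which Hmga1 was highest. Xist had 3.3 CPM in NG2ko library 1, against 0.197 to 0.43 CPM in the other NG2ko libraries. Xist had 102 CPM in WT library 4, against 197 to 210 CPM in the other WT libraries.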

How the results depend on the processing

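Hmga2, Igf2bp3 and H19 kept their direction under all 15 alternatives and were called in each, on the values that chose them, Hmga2 from -1.32 to -1.19 and H19 from -0.62 to -0.51. With FPKM and a pseudocount of 0.1, Hmga2 was -1.24, Igf2bp1 -0.23 and Igf2bp3 -0.83. With a pseudocount of 1, Hmga2 was -1.19, Igf2bp1 -0.11 and Igf2bp3 -0.59. Between 3 and 4 of the 8 genes were called under every setting. Over all genes, 1454 to 1976 were called when 1 library was left out, and FPKM with a pseudocount of 0.1 called 1168 higher and 898 lower, against 937 higher and 1160 lower from counts. DESeq2 called 1 let-7 host gene and 4 of the HMGA-linked genes, and without the filter on low counts 1 HMGA-linked gene was called. With FPKM and a pseudocount of 0.1, 4 cell cycle genes were called. Leaving out 1 library gave 4 to 8 calls among let-7 targets (4 or 5 without any library but WT 2 or 4), 1 to 3 for microRNA processing (1 without NG2ko 1, NG2ko 4 or WT 4) and 0 to 1 for let-7 hosts (1 without NG2ko 4). It gave 1 to 3 for HMGA-linked genes (1 without any library but WT 2 or 4), 5 to 9 for imprinted genes (5 without NG2ko 3) and 3 to 7 for the cell cycle (3 without NG2ko 1, 4 without WT 1 or 3). The cause was not tested.

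The replicate block called 1815 genes, 1657 of them shared with the 2097, and 1 HMGA-linked gene, and 6 let-7 targets, 0 of them higher. Same-numbered libraries correlated by 0.001 to 0.044 in their deviations, and differently numbered ones by -0.03 to 0.016. All lay near 0, which neither shows nor excludes a pairing by number. Depth limits Lin28b alone among the 9.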
